A study of Mus musculus with 46 samples.

Results

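Proximal tubular (PT) cells sorted from mouse kidneys after reversal of a ureteric obstruction (rUUO) were compared with PT cells from kidneys that were still obstructed (unilateral ureteric obstruction, UUO). The members were the LTL+ samples with the treatment label RUUO (n = 3, replicates 2, 3 and 4) or UUO (n = 4, replicates 1 to 4), 7 of the 44 samples whose column in the deposited table could be assigned, out of 46 samples in the labels. LTL is Lotus lectin, which binds the brush border of the proximal tubule and was the handle for sorting. Sham PT cells (n = 3, replicates 1, 2 and 4) gave the level without obstruction. All mice were wild type (WT) male C57BL/6 animals of 8 to 12 weeks, and the labels give no difference between the groups other than the surgery. The rUUO mice were culled 14 days after the ureter had been reimplanted, whereas the labels do not say which UUO samples came from day 2 or day 7 after obstruction, the UUO times given in the study's methods. UUO replicate 2 carries both SHAM and UUO in its title and was placed in UUO by its treatment label. The total count of genes called between rUUO and UUO is also given without it, but the counts of single gene lists are not. Over the lists of functions together, 38 members were called without it and 55 with it.

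PT cells reclaim filtered phosphate, glucose, amino acids and bicarbonate through apical and basolateral carriers, take up filtered protein by endocytosis, and burn fatty acids and other non-sugar fuels in densely packed mitochondria. They also make glucose, arginine and creatine, and clear organic anions and xenobiotics from the blood. When the ureter is blocked, injured PT cells lose these products and express injury genes such as Havcr1, which encodes kidney injury molecule-1. Intercalated cells, which secrete acid or base further down the nephron, and the cells of the distal tubule carry their own transporters.

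Values are FPKM (fragments per kilobase of a gene's transcript, relative to all mapped fragments of the library), and the table holds no counts, so absolute depth is unknown. The number of genes at 1 FPKM or more was 11282 to 12062 in UUO, 10743 to 11131 in rUUO and 9502 to 9816 in sham, a difference between rUUO and UUO of −709 (exact two-sided permutation test, p = 0.0571) that became −355 after rescaling without chrM genes (p = 0.200, same exact permutation test). Relative depth, set to 1 at the median of the 10 PT samples, was 0.73 to 1.41 for UUO, 0.81 to 1.14 for rUUO and 0.71 to 1.38 for sham samples. Genes of the mitochondrial chromosome (chrM) took most of each library. Their part of the FPKM sum was 64.7%, 66.2%, 58.7% and 66.4% in the UUO samples and 68.1%, 71.3% and 70.0% in the rUUO samples. Every rUUO sample lay above every UUO sample, and the means differed by 5.80 percentage points (64.0 ± 3.64%, SD, n = 4, against 69.8 ± 1.60%, SD, n = 3; two-sided exact permutation p = 0.0286, and 3 against 4 samples allow none smaller). Since FPKM is a share of the library, each comparison was repeated after rescaling every sample to the same sum without the 37 chrM genes.

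The sorted cells carried PT markers in all groups. Slc34a1, the main sodium-phosphate cotransporter of the brush border, had 1609.8, 1617 and 1145 FPKM in the sham samples, 314, 304, 359 and 363 in UUO and 921, 802 and 692 in rUUO. Lrp2, the endocytic receptor megalin, had 229, 213 and 189.7 FPKM in sham, 55.01, 64.8, 101 and 131 in UUO and 131, 116 and 131 in rUUO. Slc5a12, a sodium-coupled lactate carrier, had 172, 184 and 155 FPKM in sham, 25.1, 29.2, 47.1 and 58.5 in UUO and 67.7, 81.2 and 106 in rUUO. All 3 genes were lowest in UUO, and for Lrp2 the highest UUO sample overlapped the rUUO samples. In such bulk samples, fewer PT cells in the sort and less RNA of these genes per PT cell cannot be told apart.

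Markers of other kidney cells differed between the groups, and their part in the results below was not tested. The 8 collecting duct markers summed to 370.2 to 498 FPKM in UUO, 157 to 229.7 in rUUO and 26.1 to 37.2 in sham. Of them, 3 passed the test as lower in rUUO, against 3.15% of all genes tested. These were Scnn1b, a sodium channel subunit that did not pass without chrM genes (limma adjusted p = 0.0520), and the intercalated cell genes Atp6v1g3 and Slc26a4. The water channel Aqp2, which defines principal cells, had 4.53, 2.69, 7.33 and 3.29 FPKM in UUO and 3.9, 1.21 and 2.48 in rUUO and did not pass (log2 change −0.63, limma adjusted p = 0.324). The 5 markers of the thick ascending limb summed to 153 to 215 FPKM in UUO, 75.5 to 159 in rUUO and 59.3 to 63.7 in sham, with only Umod past the threshold. Umod averaged 147 FPKM in UUO, 72.9 in rUUO and 17.4 in sham, so it weighed most in the UUO sums. Cldn10 went the other way, with means of 17.3, 24.2 and 38.8 FPKM. By their estimates 4 of the 5 were lower in rUUO than in UUO and 1, Cldn10, was higher. The 8 macrophage markers summed to 38.6 to 104 FPKM in UUO and 58.1 to 67.5 in rUUO, the 6 endothelial markers to 14.6 to 29.8 and 18.6 to 21.4, and the 8 stromal markers to 40.8 to 78.6 and 56.4 to 61.0. Of these markers, 5 macrophage, 6 endothelial and 6 stromal ones could be tested, and none passed in either direction. The 5 lymphocyte markers summed to at most 2.53 FPKM in UUO and 0.46 in rUUO. The 3 distal convoluted tubule markers summed to 9.78 to 26.7 FPKM in UUO and 6.72 to 18.3 in rUUO, the 4 podocyte markers to 5.28 to 14.8 and 5.95 to 13.3, the 3 neutrophil markers to at most 1.70 and 3.98, and the 5 erythroid markers to 13 to 46.9 and 11.9 to 50.8.

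Of the 11416 genes that averaged 1 FPKM or more across the 10 PT samples, 77 were higher (0.674%) and 360 lower (3.15%) in rUUO than in UUO (limma on log2(FPKM + 1), Benjamini-Hochberg adjusted p under 0.05). The median log2 change was 1.24 over the genes that rose and −1.27 over those that fell, against −0.27 over all genes tested. The rUUO and UUO values did not overlap for 434 of the 437 genes, where 19.3% of all genes tested did not overlap. The calls rest on the same values, so the lack of overlap gives no separate support for them. Rescaling without chrM genes moved the all-gene median to −0.11 and turned the balance to 148 higher (1.30%) and 157 lower (1.38%) of 11372 genes. Of the genes called as deposited, 76 of the 77 rises but 157 of the 360 falls were called in both. Without UUO replicate 2, 226 genes passed (32 higher and 194 lower), and the counts without each of the other samples ranged from 120 (without rUUO replicate 3) to 462 (without sham replicate 2). Against sham, 3186 genes were higher (27.9%) and 561 lower (4.91%) in UUO, while 744 were higher (6.52%) and 108 lower (0.946%) in rUUO. These comparisons share samples, so their values are set side by side for each gene and no overlap between them is given. On the log2(FPKM + 1) scale the change of genes with low values is understated.

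Carriers of the PT membrane held 9 of the rises. Of the 53 transporter genes listed, 50 could be tested, and 9 rose, 2 fell and 39 did not pass. Their median log2 change was 0.38 in rUUO against UUO, −0.97 in UUO against sham and −0.63 in rUUO against sham. The share that rose was well above the 0.674% of all genes tested. Without chrM genes 11 rose and 1 fell, and the median was 0.56. For Slc34a1, whose samples are given above, the means were 335 ± 30.6 FPKM for UUO (SD, n = 4) against 805 ± 115 FPKM for rUUO (SD, n = 3), and the log2 change was 1.26 (standard error 0.17, limma adjusted p = 0.00167). It stood at 23.0% of the sham mean in UUO and at 55.3% in rUUO, still −0.85 from sham (limma adjusted p = 0.01000). Its lower-capacity relative Slc34a3 had 5.24, 4.26, 2.95 and 3.69 FPKM in UUO, 25.3, 18.3 and 9.12 in rUUO and 26.9, 26.4 and 18.9 in sham (log2 change 1.80, standard error 0.31, limma adjusted p = 0.00762). All rUUO samples of Slc34a3 lay above all UUO samples, but they spread over a wider range than the UUO samples did.

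Sugar, amino acid and organic anion carriers followed. Slc5a2, the glucose carrier SGLT2 of the early proximal tubule, had 47.1, 38.1, 41.4 and 44.6 FPKM in UUO, 168, 133 and 111 in rUUO and 274, 306 and 204 in sham (log2 change 1.64, standard error 0.20, limma adjusted p = 9.47e-04). Slc6a19, which takes up neutral amino acids at the brush border, had 10.2, 8.28, 8.49 and 5.84 FPKM in UUO, 29.9, 26.8 and 21.7 in rUUO and 80.7, 71.8 and 71.8 in sham (log2 change 1.57, standard error 0.22, limma adjusted p = 0.00207). Neither gene overlapped between the groups, and Slc6a19 reached only 34.9% of the sham mean in rUUO while Slc5a2 reached 52.6%. Slc22a8, the basolateral organic anion transporter OAT3, had 26.7, 16.3, 17.4 and 17.4 FPKM in UUO, 61.8, 72.8 and 42.7 in rUUO and 149.9, 132 and 112 in sham (log2 change 1.55, standard error 0.23, limma adjusted p = 0.00337). The basolateral amino acid carriers Slc7a8 (1.13) and Slc7a7 (0.92), the sodium-bicarbonate cotransporter Slc4a4 (0.87) and Slc5a12 (1.12) also rose on the log2 scale (limma adjusted p = 0.00636, 0.0373, 0.0264 and 0.0354).

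The 2 transporter genes that fell were Atp1b1 and Slc13a1. Atp1b1, the beta subunit of the sodium-potassium pump, had 601, 642, 555 and 629 FPKM in UUO, 348, 305 and 342 in rUUO and 363, 338 and 302 in sham (log2 change −0.87, standard error 0.15, limma adjusted p = 0.00646). It was high in every UUO sample and lay at 99.1% of the sham mean in rUUO. The sulfate carrier Slc13a1 had 133, 146, 192 and 214 FPKM in UUO and 65.8, 97.4 and 94.8 in rUUO (log2 change −0.98, standard error 0.22, limma adjusted p = 0.0271), and did not pass without chrM genes (log2 change −0.79, limma adjusted p = 0.0968). The pump's regulator Fxyd2 (0.43, limma adjusted p = 0.191) did not pass as deposited but passed without chrM genes (0.63, limma adjusted p = 0.0153).

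**Figure D1:**
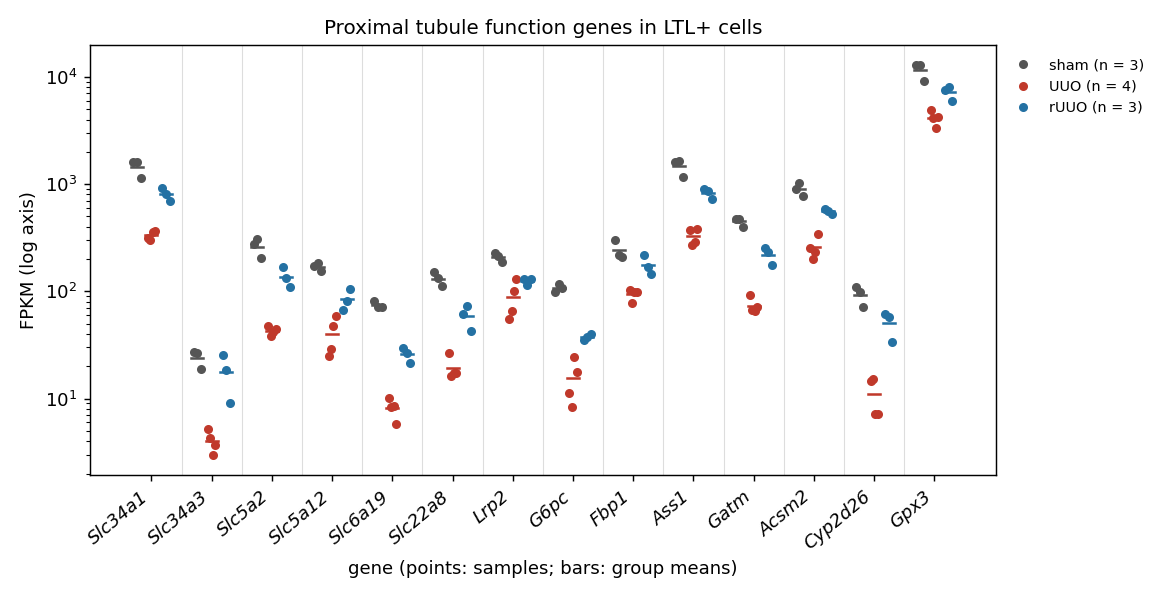
FPKM of PT function genes in each sample, on a log axis, with 1 point per sample, a bar at each group mean, and sham (n = 3), UUO (n = 4) and rUUO (n = 3) side by side for each gene. The rUUO points lie between the UUO and the sham means for genes such as Slc34a1, Slc6a19 and Gatm, and the Lrp2 points of rUUO and UUO overlap.

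Endocytosis genes did not pass the test as deposited. All 16 receptors and adaptors could be tested and none was called, where 0.674% of all genes tested rose and 3.15% fell. With 16 genes, a count of none is close to these shares. The median log2 change was 0.16 (−0.28 in UUO against sham, −0.06 in rUUO against sham), beside −0.27 over all genes tested. Without chrM genes 3 of the 16 rose, against 1.30% of all genes, and the median was 0.35, beside −0.11 over all genes. For Lrp2, the log2 change was 0.60 (standard error 0.25, limma adjusted p = 0.192), with 41.7% of the sham mean in UUO and 59.8% in rUUO. Its clathrin adaptor Dab2 had 191, 202, 220.2 and 212 FPKM in UUO, 175, 154 and 184 in rUUO and 221, 198 and 197 in sham. Every rUUO sample of Dab2 lay below every UUO and sham sample, at 83.3% of the sham mean, against 100.4% in UUO. The change did not pass (log2 change −0.27, standard error 0.15, limma adjusted p = 0.318).

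Some glucose-making enzymes rose and some glycolytic genes fell. Of 10 gluconeogenic and fructose-handling genes, all tested, 3 rose (against 0.674% of all genes tested), 7 did not pass and none fell, with a median log2 change of 0.60 (−1.34 in UUO against sham, −0.69 in rUUO against sham), and 5 rose without chrM genes. G6pc, the catalytic subunit of glucose-6-phosphatase that releases free glucose, had 11.2, 8.32, 24.5 and 17.7 FPKM in UUO, 35.1, 37.3 and 40.2 in rUUO and 97.7, 118 and 107 in sham (log2 change 1.33, standard error 0.29, limma adjusted p = 0.0251). Slc37a4, which feeds this enzyme with glucose-6-phosphate, had 7.43, 4.01, 8.55 and 7.47 FPKM in UUO and 21.6, 16.3 and 14.5 in rUUO (log2 change 1.25, standard error 0.26, limma adjusted p = 0.0225). Fbp1, fructose-1,6-bisphosphatase, had 102, 78.2, 98.4 and 99.3 FPKM in UUO and 219, 167 and 146 in rUUO (log2 change 0.89, standard error 0.20, limma adjusted p = 0.0267). None of the 3 overlapped between the groups, and Fbp1 (73.0% of the sham mean in rUUO) stood nearer to sham than G6pc (34.9%). Khk, the ketohexokinase of fructose breakdown, had a log2 change of 0.66 (limma adjusted p = 0.0799) and passed without chrM genes (limma adjusted p = 0.0126).

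Of 16 glycolysis genes, 15 could be tested, and 4 fell (against 3.15% of all genes tested), 11 did not pass and none rose. Their median was −0.39 in rUUO against UUO, 0.65 in UUO against sham and 0.17 in rUUO against sham. Slc2a1, the glucose carrier GLUT1, had 54.2, 45.4, 57.1 and 48.2 FPKM in UUO, 15.2, 15.1 and 13.8 in rUUO and 3.29, 2.89 and 3.85 in sham (log2 change −1.73, standard error 0.20, limma adjusted p = 9.16e-04). The groups lay well apart, and rUUO remained above sham (1.86, limma adjusted p = 6.83e-05). Pkm, a pyruvate kinase, had 53.97, 42.95, 52.95 and 34.4 FPKM in UUO and 18.6, 21.5 and 17.9 in rUUO (log2 change −1.19, standard error 0.27, limma adjusted p = 0.0294), Aldoa fell by 0.89 and the hexokinase Hk1 by 0.99 on the log2 scale (limma adjusted p = 0.0159 and 0.0488). Only Slc2a1 and Aldoa passed without chrM genes. Gapdh (−0.17) and Ldha (−0.34) did not pass (limma adjusted p = 0.653 and 0.286), and the sign of Gapdh changed without chrM genes (0.03). Of the collecting duct markers, 3 of 8 were also lower in rUUO (2 of 8 without chrM genes) and 5 did not pass. The part of such cells in the glycolysis values was not tested.

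The start of G6pc and that of Slc34a1 are shown because both genes rose in rUUO, and that of Havcr1 because it had the largest fall among the injury genes listed. The windows hold the RefSeq promoter sequence of GRCm38.p6 (250 bases before to 50 bases after a transcript start), all on the plus strand, and capitals mark a match to GTTAATNAT, a homeodomain-type motif, on either strand. The G6pc window is chr11:101367466-101367765, the Slc34a1 window chr13:55399398-55399697 and the Havcr1 window chr11:46739973-46740272, the first of 3 windows listed for Havcr1.
G6pc: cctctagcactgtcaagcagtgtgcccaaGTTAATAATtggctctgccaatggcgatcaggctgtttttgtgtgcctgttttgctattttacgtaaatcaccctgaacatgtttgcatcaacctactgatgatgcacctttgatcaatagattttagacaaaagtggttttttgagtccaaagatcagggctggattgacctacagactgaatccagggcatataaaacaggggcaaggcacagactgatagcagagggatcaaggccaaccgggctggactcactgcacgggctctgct
Slc34a1: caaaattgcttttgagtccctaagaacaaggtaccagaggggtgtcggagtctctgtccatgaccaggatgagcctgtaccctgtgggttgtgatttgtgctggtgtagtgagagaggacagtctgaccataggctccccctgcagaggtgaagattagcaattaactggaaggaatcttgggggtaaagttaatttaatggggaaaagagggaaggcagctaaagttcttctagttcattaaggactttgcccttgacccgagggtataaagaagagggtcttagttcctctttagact
Havcr1: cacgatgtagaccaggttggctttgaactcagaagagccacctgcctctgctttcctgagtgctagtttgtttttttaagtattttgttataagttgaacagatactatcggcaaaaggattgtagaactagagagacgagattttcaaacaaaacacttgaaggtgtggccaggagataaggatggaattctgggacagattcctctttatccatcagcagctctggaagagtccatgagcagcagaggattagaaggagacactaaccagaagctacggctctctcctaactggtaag
The match in G6pc begins at base −221 from the start, and the other 2 windows shown hold none of the letters searched, which were GTTAATNAT, the HNF4-type CAAAGTCCA and the AP-1-type TGANTCA on both strands. Of the 2 further Havcr1 windows, not shown, that at chr11:46750918-46751217 holds a match to TGANTCA. Over all 32851 promoter windows, GTTAATNAT was found in 0.801%, CAAAGTCCA in 0.475% and TGANTCA in 7.81%. Counted per gene, GTTAATNAT was in 0.940% of all 27025 genes with a window, in 1 of the 56 such genes that rose (G6pc, 1.79%) and in 3 of the 284 that fell (1.06%). TGANTCA was in 8.97% of all these genes, in 3.57% of those that rose and in 7.39% of those that fell, and CAAAGTCCA in 0.555%, none and 1.41%. These matches describe letters in the windows and no binding.

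Of 28 genes of amino acid, arginine and creatine metabolism, 25 could be tested, 7 rose (against 0.674% of all genes tested), 18 did not pass and none fell, with a median log2 change of 0.41 (−1.19 in UUO against sham, −0.71 in rUUO against sham), and 10 rose without chrM genes. Gatm, which catalyses the first step of creatine synthesis, had 91.5, 66.3, 65.8 and 70.8 FPKM in UUO, 253, 231 and 176 in rUUO and 475, 470.4 and 399 in sham (log2 change 1.56, standard error 0.18, limma adjusted p = 9.16e-04). Ass1, the arginine-making argininosuccinate synthase, had 371, 271, 285 and 380.3 FPKM in UUO and 909, 857 and 719 in rUUO (log2 change 1.35, standard error 0.18, limma adjusted p = 0.00167), and its partner enzyme Asl had 36.6, 27.7, 34 and 22.3 and 59.8, 73.9 and 66.8 FPKM (log2 change 1.14, standard error 0.22, limma adjusted p = 0.0139). In all 3 the lowest rUUO sample was above the highest UUO sample, at group means of 49.1%, 56.6% and 77.1% of sham. Gldc, the glycine decarboxylase, had 2.75, 2.24, 1.8 and 2.7 FPKM in UUO and 14.5, 10.9 and 5.97 in rUUO (log2 change 1.70, standard error 0.29, limma adjusted p = 0.00752), and Aldh4a1, an enzyme of proline breakdown, rose by 1.25 (limma adjusted p = 0.0131). Miox, which breaks down inositol, rose by 0.98 (limma adjusted p = 0.0451). The most abundant members that did not pass were Acy3 (0.35, limma adjusted p = 0.555), an aminoacylase, and the glutamate dehydrogenase Glud1 (−0.07, limma adjusted p = 0.849; 0.12 without chrM genes).

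Detoxification genes rose in part. Of 32 phase I and phase II genes, 31 could be tested, 4 rose (against 0.674% of all genes tested), 27 did not pass and none fell, with a median of 0.30 (−1.05 in UUO against sham, −0.62 in rUUO against sham). Without chrM genes 5 rose, none fell and the median was 0.49. After rescaling to equal sums with chrM genes kept, 3 rose and 1 fell of 32 tested. Cyp2d26, a cytochrome P450 whose fragments can be shared with its paralogs, had 14.6, 15.4, 7.18 and 7.25 FPKM in UUO, 61.8, 57.6 and 34 in rUUO and 109, 98.1 and 71.4 in sham (log2 change 2.14, standard error 0.31, limma adjusted p = 0.00225). Ces1d, a carboxylesterase, had 18.3, 11.9, 19.3 and 13.9 FPKM in UUO and 47.7, 41.2 and 34.5 in rUUO (log2 change 1.34, standard error 0.23, limma adjusted p = 0.00707). Gpx3, the secreted glutathione peroxidase and an abundant PT transcript, had 4905, 4094, 3358 and 4212 FPKM in UUO and 7568, 7989.8 and 5968 in rUUO (log2 change 0.79, standard error 0.18, limma adjusted p = 0.0267). The groups did not overlap for any of them, with Gpx3 at 35.5% of the sham mean in UUO and 61.5% in rUUO. After quantile normalization the change of Gpx3 was 0.22 and did not pass (limma adjusted p = 0.482), and it passed in 10 of 18 alternative fits. Ugt3a2, a glycosyltransferase, rose by 0.69 (limma adjusted p = 0.0377). Gsta2, a glutathione transferase, had 224, 259, 308 and 267 FPKM in UUO, 267, 247 and 229.9 in rUUO and 545, 627 and 477 in sham, so that both surgery groups lay below sham and overlapped each other (log2 change −0.09, standard error 0.16, limma adjusted p = 0.793; 0.11 without chrM genes). Cyp2e1 did not pass either (0.19, limma adjusted p = 0.655).

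Fatty acid oxidation and the respiratory chain showed few calls. Of 40 fatty acid oxidation and peroxisome genes, all tested, 1 rose and 1 fell, with a median of −0.04 (−0.36 in UUO against sham, −0.32 in rUUO against sham). As deposited, these counts were close to the shares over all genes, of which 0.674% rose and 3.15% fell. Without chrM genes 5 rose, against 1.30% of all genes, none fell and the median was 0.15. Acsm2, a medium-chain acyl-CoA synthetase, had 255, 199, 234 and 346 FPKM in UUO, 589.6, 562 and 521 in rUUO and 905, 1016 and 771 in sham (log2 change 1.13, standard error 0.19, limma adjusted p = 0.00636). Acadl, the long-chain acyl-CoA dehydrogenase, went the other way, with 28.9, 26.8, 34.2 and 28.6 FPKM in UUO, 15.1, 14.3 and 17.6 in rUUO and 16.4, 18.5 and 14.3 in sham (log2 change −0.88, standard error 0.20, limma adjusted p = 0.0309), and did not pass without chrM genes (limma adjusted p = 0.0610). Slc27a2 (−0.57), a fatty acid carrier, and Etfb (0.26), which passes electrons from fatty acid oxidation to the respiratory chain, did not pass (limma adjusted p = 0.173 and 0.557).

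None of the 37 nuclear respiratory chain genes passed, where 0.674% of all genes tested rose and 3.15% fell. Their median was 0.08 (−0.15 in UUO against sham and −0.15 in rUUO against sham), beside −0.27 over all genes tested. Without chrM genes 3 of the 37 rose, against 1.30% of all genes. Atp5b, of the ATP synthase, had 1875, 1538, 1953 and 1770.5 FPKM in UUO and 1731, 1397 and 1287 in rUUO (log2 change −0.28, standard error 0.15, limma adjusted p = 0.294), and Cox4i1, of cytochrome c oxidase, had 682, 537, 675 and 449 and 701, 588 and 553 (log2 change 0.08, standard error 0.19, limma adjusted p = 0.835). Both genes overlapped between the groups. The 13 protein-coding genes of chrM were all higher in rUUO by their estimates but none passed, with a median of 0.38 (−0.60 in UUO against sham). mt-Co1, a cytochrome c oxidase subunit, had a log2 change of 0.28 and mt-Cytb, the cytochrome b of complex III, of 0.32 (limma adjusted p = 0.266 and 0.261). Together the 13 genes took 9.88 ± 1.21% (SD, n = 4) of the FPKM sum of UUO samples and 12% of that of rUUO samples (SD 1.43, n = 3; exact two-sided permutation test, p = 0.114), and the ribosomal RNAs of chrM 54.1 ± 2.68% and 57.7 ± 2.16% (p = 0.114, same exact permutation test).

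**Figure D2:**
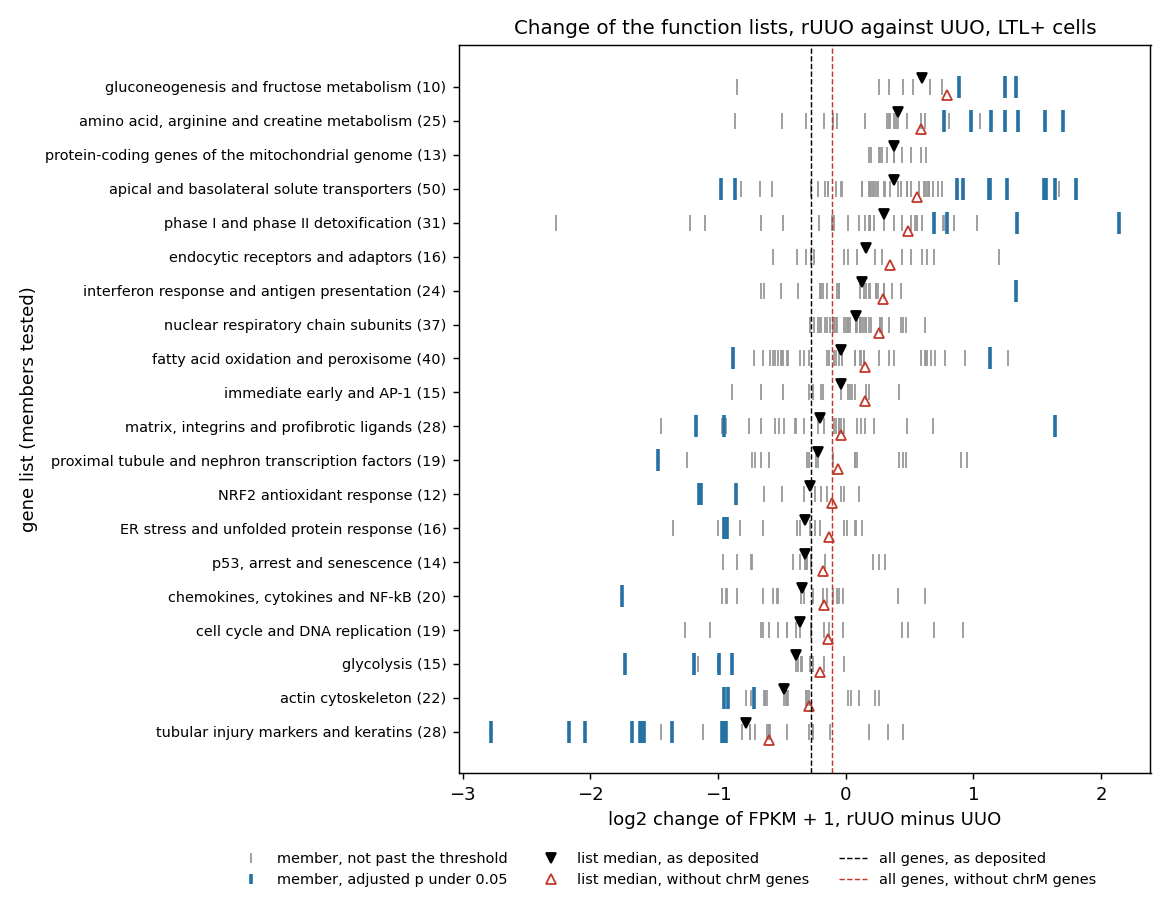
Log2 change of FPKM + 1, rUUO minus UUO, of each tested member of 20 gene lists (ticks, blue where the limma adjusted p was under 0.05), with list medians as deposited (black triangles) and without chrM genes (red open triangles), and the median of all genes as dashed lines. Medians of the transporter list and of the metabolic lists other than glycolysis lie to the right of the lines, and that of the injury list, −0.78, lies farthest to the left.

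Transcription factors of the nephron showed 1 call, a fall, among 19 genes tested, where 3.15% of all genes tested fell. Mecom had 29.97, 41.8, 24.6 and 23.8 FPKM in UUO, 6.69, 17.04 and 8.4 in rUUO and 0.93, 1.12 and 1.69 in sham (log2 change −1.47, standard error 0.31, limma adjusted p = 0.0242) and did not pass without chrM genes (limma adjusted p = 0.0601). It is a zinc finger factor of the distal nephron in the adult kidney. Of the 8 collecting duct markers, 3 fell as well (2 without chrM genes) and 5 did not pass. The part of such cells in the fall of Mecom was not tested. Hnf4a, a central factor of PT identity, had 30.4, 36.8, 55.1 and 45.6 FPKM in UUO, 43.1, 34.98 and 37.2 in rUUO and 78.3, 71.9 and 59.1 in sham (log2 change −0.10, standard error 0.22, limma adjusted p = 0.833; 0.09 without chrM genes). The rUUO values of Hnf4a lay inside the UUO range and below sham (log2 change −0.84 against sham, limma adjusted p = 0.0445). Cux1 did not pass (0.09, limma adjusted p = 0.850), and the list median was −0.22.

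Of 29 injury markers and keratins, 28 could be tested, 11 fell (against 3.15% of all genes tested), 17 did not pass and none rose. Against sham, 27 of the 28 were higher in UUO and 23 in rUUO, where 27.9% and 6.52% of all genes tested were. Their median log2 change was −0.78 in rUUO against UUO, 3.31 in UUO against sham and 2.32 in rUUO against sham. Without chrM genes 10 fell (against 1.38% of all genes), with a median of −0.60. Havcr1 had 174, 194, 429 and 281 FPKM in UUO, 23.7, 41.6 and 47.2 in rUUO and 1.71, 1.39 and 0.41 in sham (log2 change −2.78, standard error 0.34, limma adjusted p = 9.47e-04). The highest rUUO sample was far below the lowest UUO sample, while the rUUO group lay 4.15 above sham on the log2 scale (limma adjusted p = 5.81e-06). Lcn2, an iron-siderophore binding protein released on tubular injury, had 268, 129, 339 and 109 FPKM in UUO, 29.1, 71.1 and 45.01 in rUUO and 1.39, 0.51 and 0.26 in sham (log2 change −2.04, standard error 0.40, limma adjusted p = 0.0159). The UUO samples of Lcn2 differed widely from each other, and no rUUO sample reached the lowest of them.

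Spp1, the secreted phosphoprotein osteopontin, had 2967, 3697, 2766 and 3065 FPKM in UUO, 558, 755 and 774 in rUUO and 179, 195 and 147 in sham (log2 change −2.17, standard error 0.17, limma adjusted p = 4.54e-05). Clu, the chaperone clusterin, had 433, 396, 509 and 345 FPKM in UUO and 127, 131 and 154 in rUUO, with 6.5, 7.39 and 3.85 in sham (log2 change −1.60, standard error 0.22, limma adjusted p = 0.00167). Cd24a, a surface glycoprotein, had 501, 479, 475 and 475 FPKM in UUO and 118, 161 and 181 in rUUO (log2 change −1.67, standard error 0.20, limma adjusted p = 9.47e-04). All 3 had tight UUO groups that did not overlap rUUO, and Spp1 came closest to sham, at 400.0% of the sham mean. The fibrinogen chains Fga (−1.58) and Fgg (−1.61), the S100 proteins S100a10 (−0.94) and S100a11 (−0.97), the integrin subunit Itgb6 (−0.95) and the keratin Krt7 (−1.36) also fell (limma adjusted p = 0.00646, 0.00707, 0.0254, 0.00559, 0.0287 and 0.0280), Krt7 not without chrM genes (limma adjusted p = 0.0551). Complement C3 (−0.59, limma adjusted p = 0.307) and S100a6 (0.18, limma adjusted p = 0.790) did not pass, and C3 still had 67.3, 75.4 and 108 FPKM in rUUO against 4.92, 4.89 and 2.96 in sham. Distal and collecting duct cells are also known to make Spp1, Clu, Cd24a, Lcn2 and Krt7, and 3 of the 8 collecting duct markers (2 without chrM genes) fell in the same samples. The part of such cells in these values was not tested.

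**Figure D3:**
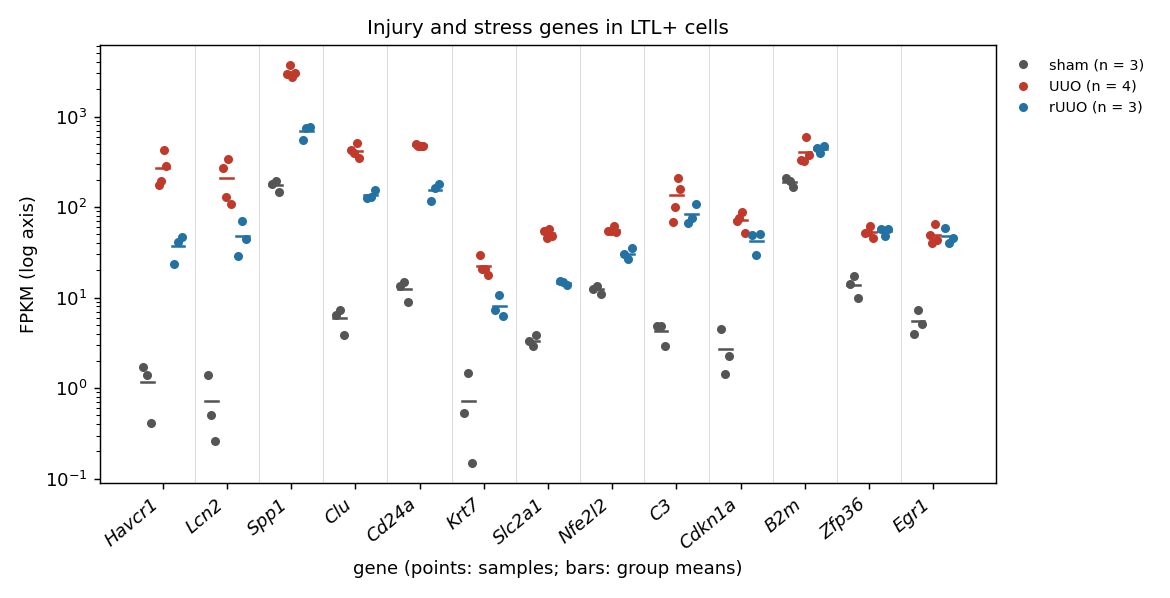
FPKM of injury and stress genes in each sample on a log axis, with 1 point per sample and a bar at each group mean (sham n = 3, UUO n = 4, rUUO n = 3). Havcr1, Lcn2, Spp1, Clu, Cd24a, Krt7, Slc2a1 and Nfe2l2 separate UUO from rUUO, whereas C3, B2m, Zfp36 and Egr1 overlap and lie above sham in both.

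None of the 15 immediate early and AP-1 genes tested (of 16) passed between rUUO and UUO. This count is close to the shares over all genes tested, of which 0.674% rose and 3.15% fell. The rUUO and UUO groups overlapped for all 15, where 19.3% of all genes tested did not overlap. Against sham, 14 of the 15 were higher in UUO and 12 in rUUO, where 27.9% and 6.52% of all genes tested were. The median was −0.04 in rUUO against UUO beside 2.25 in UUO against sham and 2.20 in rUUO against sham. Egr1, an early growth response factor, had 49.1, 40.5, 65.3 and 43.4 FPKM in UUO, 58.8, 40.1 and 45.2 in rUUO and 3.92, 7.28 and 5.17 in sham, a log2 change of −0.04 (0.15 without chrM genes). Zfp36, which destabilises inflammatory mRNA, had 52.2, 52.8, 62.1 and 45.5 FPKM in UUO, 56.9, 48.1 and 57.1 in rUUO and 14.3, 17.5 and 9.83 in sham, a log2 change of 0.03 that turned to −0.03 after rescaling to equal sums. For both genes rUUO overlapped UUO and lay entirely above sham, with log2 changes of 2.94 and 1.92 against sham (limma adjusted p = 6.68e-06 and 9.61e-05).

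Of 28 interferon and antigen presentation genes, 24 could be tested and 1 rose (against 0.674% of all genes tested), with a median of 0.13 (1.32 in UUO against sham, 1.24 in rUUO against sham). Oasl2, an interferon-induced member of the oligoadenylate synthetase family, had 7.83, 4.94, 5.11 and 4.19 FPKM in UUO, 16.9, 12.8 and 15.7 in rUUO and 1.24, 1.34 and 1.22 in sham (log2 change 1.33, standard error 0.26, limma adjusted p = 0.0161). Every rUUO sample of Oasl2 lay above every UUO and sham sample. B2m, the light chain of class I MHC, had 332, 324, 593 and 373 FPKM in UUO, 448, 393 and 477 in rUUO and 207, 196 and 167 in sham (log2 change 0.16, standard error 0.21, limma adjusted p = 0.693), and the class I heavy chain H2-K1 did not pass either (−0.05, limma adjusted p = 0.937; 0.15 without chrM genes). Both were higher in rUUO than in sham (log2 change 1.21 and 1.84, limma adjusted p = 0.00314 and 7.34e-04).

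Of 26 chemokine, cytokine and NF-kB genes, 20 could be tested and only Ccl5, a T cell attracting chemokine, fell (1 of 20, close to the 3.15% of all genes tested). The list median was −0.34, beside −0.27 over all genes tested. Ccl5 had 3.17, 3.5, 7.69 and 3.83 FPKM in UUO and 0.99, 0.95 and 0 in rUUO, the last listed at 0 (log2 change −1.75, standard error 0.39, limma adjusted p = 0.0262). Its means were 0.650 FPKM in sham and 0.647 in rUUO, so it met the minimum mean of 1 FPKM only through its UUO samples. Cxcl16 (−0.10; 0.08 without chrM genes) and Cxcl10 (−0.97), which attract T cells too, did not pass (limma adjusted p = 0.840 and 0.274). The lymphocyte markers Cd3e, Cd3g, Cd79a, Ms4a1 and Nkg7 were near 0 in all groups, as given above.

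Some members of the stress lists fell, and the list medians below stood close to the −0.27 over all genes tested. Of 14 NRF2 antioxidant genes, 12 could be tested and 3 fell, where 3.15% of all genes tested did (median −0.28): Nfe2l2, the factor NRF2 itself, from 54.3, 55.1, 61.6 and 53.5 FPKM in UUO to 30.2, 26.4 and 34.97 in rUUO (log2 change −0.86, standard error 0.19, limma adjusted p = 0.0262), Gclc, of glutathione synthesis (−1.15), and G6pdx, of the pentose phosphate pathway (−1.13; limma adjusted p = 0.0276 and 0.0254). Only Gclc passed without chrM genes. Txn1 (−0.19) and Prdx1 (−0.33) did not pass (limma adjusted p = 0.635 and 0.395). Of 18 genes of the unfolded protein response, 16 could be tested and 2 fell (against 3.15% of all genes tested), with a median of −0.32. They were the transcription factor Xbp1 (−0.93) and the sensor Atf6 (−0.95; limma adjusted p = 0.0342 and 0.0488). Without chrM genes Atf6 did not pass (limma adjusted p = 0.115), and it passed in 1 of 18 alternative fits. The chaperones Hsp90b1 (−0.36) and Calr (0.07) did not pass (limma adjusted p = 0.417 and 0.900).

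No gene passed among 14 p53 and senescence genes tested (of 18, median −0.32) or 19 cell cycle genes tested (of 28, median −0.36). These counts were close to the shares over all genes tested, of which 0.674% rose and 3.15% fell. The median over all genes tested was −0.27. Cdkn1a, the cell cycle inhibitor p21, had 69.8, 75.5, 89.5 and 51.8 FPKM in UUO, 48.7, 29.4 and 50.1 in rUUO and 4.49, 1.43 and 2.28 in sham (log2 change −0.74, standard error 0.30, limma adjusted p = 0.172). The rUUO and UUO values of Cdkn1a did not overlap, and rUUO was 3.59 above sham (limma adjusted p = 6.27e-06). Ccng1, another p53 target, had a log2 change of −0.16 (0.03 without chrM genes), Ccnd1, cyclin D1, of 0.69 and Stmn1, a tubulin binding protein of dividing cells, of −0.27 (limma adjusted p = 0.760, 0.193 and 0.532).

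Matrix, integrin and cytoskeleton genes moved in single members. Of 33 matrix, integrin and profibrotic genes, 28 could be tested, 1 rose and 2 fell (against 0.674% and 3.15% of all genes tested). Their median was −0.20 (1.24 in UUO against sham, 0.92 in rUUO against sham), beside −0.27 over all genes tested. Itgav, the alpha V integrin, had 34.2, 39.5, 43.1 and 51.6 FPKM in UUO, 14.96, 17.5 and 21.9 in rUUO and 11.9, 8.94 and 10.8 in sham (log2 change −1.17, standard error 0.22, limma adjusted p = 0.0130), and its partner Itgb6, which pairs with it to activate TGF-beta, had 74.1, 67.6, 85.3 and 85.1 and 42.4, 39.5 and 37.3. Neither integrin overlapped between the groups. Mmp7, a matrix metalloproteinase, rose instead, with 1.55, 7.63, 4.25 and 3.18 FPKM in UUO, 13.3, 15.1 and 12.6 in rUUO and 0.06, 0 and 0.05 in sham (log2 change 1.64, standard error 0.36, limma adjusted p = 0.0254). It passed in 9 of 18 alternative fits. Timp3 (0.22) and Sparc (−0.01; 0.18 without chrM genes) did not pass (limma adjusted p = 0.442 and 0.980). Of 22 actin cytoskeleton genes, all tested, 3 fell (against 3.15% of all genes tested), with a median of −0.48. They were the actin binding genes Tpm4 (−0.95), Tagln2 (−0.92) and Ezr (−0.72; limma adjusted p = 0.0248, 0.0494 and 0.0485). Of these, only Tpm4 passed without chrM genes, where 1.38% of all genes fell. Actb (0.10) and Actg1 (−0.45) did not pass (limma adjusted p = 0.818 and 0.152).

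Beyond the lists, the 12 largest rises and 12 largest falls, taken from called genes without overlap, held further PT and distal genes. Dpep1, a brush border dipeptidase, had 19.2, 9.4, 12.3 and 10.04 FPKM in UUO, 56.7, 52.04 and 24.9 in rUUO and 80.5, 89.5 and 49.6 in sham (log2 change 1.70, standard error 0.32, limma adjusted p = 0.0131). Hsd3b2, of the 3-beta-hydroxysteroid dehydrogenases, had 7.42, 4.21, 10.4 and 11.2 FPKM in UUO and 30.1, 30.1 and 22.1 in rUUO (log2 change 1.67, standard error 0.30, limma adjusted p = 0.00877). Tmem86b, a lysoplasmalogenase, had the largest rise once predicted genes were left out, with 1.59, 1.02, 1.07 and 2.07 FPKM in UUO, 11.6, 12.7 and 13.1 in rUUO and 13.7, 4.74 and 10.4 in sham (log2 change 2.48, standard error 0.32, limma adjusted p = 0.00154). That the rUUO samples of all 3 lay above every UUO sample follows from how they were chosen. The rUUO samples of Tmem86b fell inside the sham range. Sectm1b (1.95) and the thyroxine carrier Ttr (1.88) rose likewise (limma adjusted p = 0.0101 and 0.0225). Hsf2bp rose by 1.66 (limma adjusted p = 0.0473) but passed in only 4 of 18 alternative fits. Ptgds, a prostaglandin D synthase, had 3, 2.93, 15.4 and 8.01 FPKM in UUO, 21.5, 18.98 and 30.8 in rUUO and 5.07, 2.92 and 1.76 in sham (log2 change 1.81, standard error 0.45, limma adjusted p = 0.0417). Like Mmp7, Ptgds was highest in rUUO (log2 change 2.59 against sham, limma adjusted p = 0.00370), and it passed in 6 of 18 alternative fits.

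The largest fall was that of Cxcl17, a chemokine of mucosal epithelia, with 17.8, 31.9, 22.6 and 13.02 FPKM in UUO and 2.34, 2.78 and 0 in rUUO (log2 change −3.19, standard error 0.43, limma adjusted p = 0.00167), the last sample listed at 0. Tldc2 had 24.5, 36.95, 39.7 and 17.01 FPKM in UUO and 1.21, 3.47 and 3.54 in rUUO (log2 change −3.03, standard error 0.37, limma adjusted p = 9.47e-04), and Fam177a had 5.27, 6.26, 10.2 and 2.99 FPKM in UUO and was listed at 0 in all rUUO samples. These 3 genes were chosen among called genes without overlap between the groups. Cxcl17 and Fam177a, with sham means of 0.143 and 0.507 FPKM, met the minimum mean of 1 FPKM only through their UUO samples. Car15, a membrane carbonic anhydrase, had 86.1, 97.9, 89.7 and 66.02 FPKM in UUO, 18.2, 24.7 and 10.3 in rUUO and 0.99, 1.51 and 3.01 in sham (log2 change −2.26, standard error 0.31, limma adjusted p = 0.00167). Pcolce, an enhancer of procollagen processing, had 112, 114, 94.6 and 99.3 FPKM in UUO and 33.1, 24.8 and 14.7 in rUUO (log2 change −2.14, standard error 0.28, limma adjusted p = 0.00154), and Tmem158 15.7, 14.7, 8.76 and 11.04 and 1.62, 2.96 and 1.8 (log2 change −2.11, standard error 0.29, limma adjusted p = 0.00189). For all 3 genes the sham samples were under 4 FPKM.

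Genes of intercalated cells were among the falls. They were collected after their values had been seen, so the counts describe these samples and carry no test of the list. Of 18 intercalated cell genes, 13 were lower in rUUO (against 3.15% of all genes tested) and 5 did not pass, with a median log2 change of −1.18, and their summed level was 1136 to 1442 FPKM in UUO, 466 to 642 in rUUO and 35.6 to 56.4 in sham. Foxi1, the factor that specifies intercalated cells, had 124, 111, 116 and 111 FPKM in UUO, 56.97, 48.9 and 45.5 in rUUO and 3.43, 1.89 and 1.51 in sham (log2 change −1.19, standard error 0.22, limma adjusted p = 0.0114). Atp6v1g3, a proton pump subunit of these cells, had 355, 326, 215 and 235 FPKM in UUO, 131, 98.03 and 79.2 in rUUO and 5.03, 7.53 and 3.94 in sham (log2 change −1.45, standard error 0.25, limma adjusted p = 0.00782). Slc26a4, the chloride-bicarbonate exchanger pendrin of base-secreting cells, had 49.5, 65.5, 57.3 and 55.8 FPKM in UUO, 11.6, 14.9 and 10.2 in rUUO and 0.79, 0.38 and 1.22 in sham (log2 change −2.14, standard error 0.24, limma adjusted p = 9.16e-04). For all 3 genes the UUO, rUUO and sham samples formed separate ranges, with rUUO in between.

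Further genes of this kind fell: the proton pump subunits Atp6v0d2 (−1.60), Atp6v1b1 (−0.85) and Atp6v1c2 (−1.22), the alkali sensing receptor Insrr (−2.17), the transporter Slc4a9 (−1.32), the channel Aqp6 (−1.65), the ammonia carrier Rhcg (−1.10), the receptor Oxgr1 (−1.08), Hepacam2 (−1.59) and the factor Hmx2 (−1.17), with limma adjusted p-values between 0.00186 and 0.0498. Slc4a1, the anion exchanger of acid-secreting cells, did not pass, with 34.1, 31.5, 24.9 and 35.6 FPKM in UUO, 42.1, 23.3 and 38.6 in rUUO and 12.3, 12.8 and 6.34 in sham (log2 change 0.10, standard error 0.28, limma adjusted p = 0.862). Kit (−0.75), Dmrt2 (−0.99), Tmem213 (−0.90) and Rhbg (−0.89) did not pass (limma adjusted p = 0.174, 0.0585, 0.0657 and 0.119). Without chrM genes 7 of the 18 remained past the threshold, with a median of −1.0 beside −0.11 over all genes.

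Of 10 genes of the distal epithelium, also collected after their values had been seen, 5 fell (against 3.15% of all genes tested). Without chrM genes 3 fell, with the Cdh1 and Krt7 calls lost. The median as deposited was −0.95, and the summed level was 692 to 997 FPKM in UUO, 302 to 404 in rUUO and 81.9 to 87.8 in sham. Trpv5, the calcium channel of the distal convoluted and connecting tubule, had 12.6, 10.3, 8.71 and 12.8 FPKM in UUO and 0.72, 1.14 and 1.78 in rUUO, and was at most 0.26 FPKM in sham (log2 change −2.47, standard error 0.29, limma adjusted p = 9.16e-04). Defb1, a beta-defensin of the distal nephron, had 535, 428, 332 and 316 FPKM in UUO, 126, 120 and 100.4 in rUUO and 14.5, 11.3 and 14.3 in sham (log2 change −1.77, standard error 0.21, limma adjusted p = 9.16e-04). Mal, a membrane protein of distal epithelia, had 73.9, 62.2, 75.8 and 74.9 FPKM in UUO and 18.5, 14.9 and 21.1 in rUUO (log2 change −1.93, standard error 0.25, limma adjusted p = 0.00154). The groups of these genes did not overlap, which for Trpv5 was part of how it was chosen. Trpv5, with means of 0.140 FPKM in sham and 1.21 in rUUO, met the minimum mean of 1 FPKM only through its UUO samples. Umod, the uromodulin of the thick ascending limb and a marker outside this list, had 136, 134, 169 and 150.4 FPKM in UUO, 53.5, 42.6 and 123 in rUUO and 17.4, 15.2 and 19.6 in sham (log2 change −1.15, standard error 0.29, limma adjusted p = 0.0402), with rUUO replicate 4 close to the UUO samples and no pass without chrM genes (limma adjusted p = 0.106). Cdh1, the epithelial cadherin, fell by 0.77 (limma adjusted p = 0.0488; 0.115 without chrM genes), while Epcam (−1.12), S100g (−0.73), Hsd11b2 (−0.67), Slc8a1 (−0.56) and Calb1 (0.52) did not pass (limma adjusted p = 0.0769, 0.128, 0.331, 0.369 and 0.503). Whether such cells entered the LTL+ sort of obstructed kidneys in larger numbers, or PT cells made these transcripts, cannot be told apart in these samples.

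**Figure D4:**
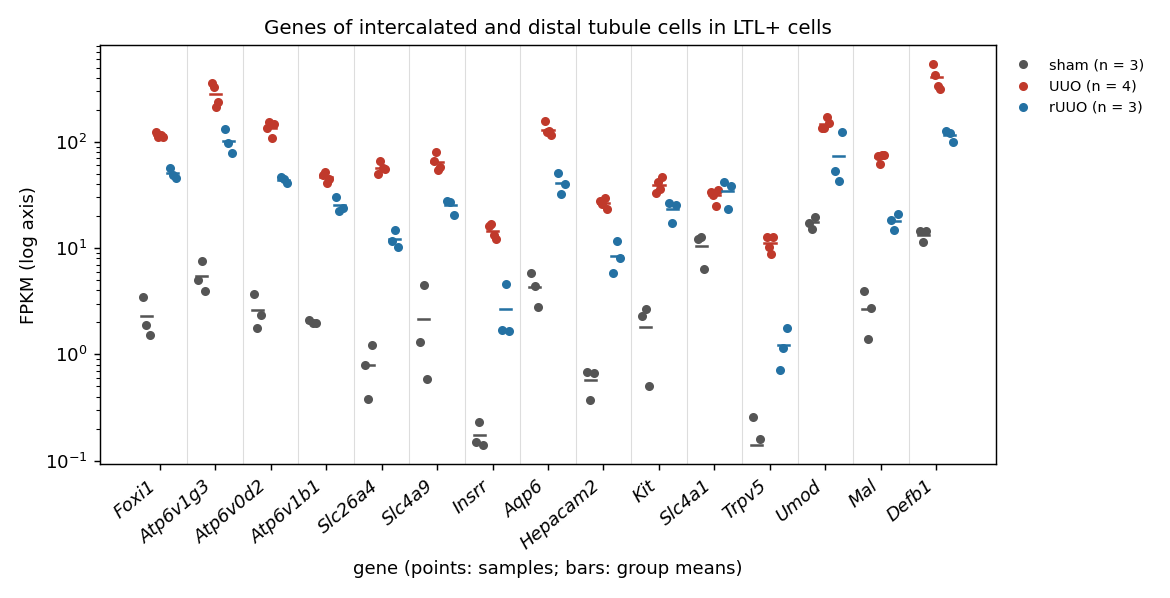
FPKM of intercalated and distal tubule genes in each LTL+ sample on a log axis, with 1 point per sample and a bar at each group mean (sham n = 3, UUO n = 4, rUUO n = 3), the sham sample of Trpv5 listed at 0 not drawn. The sham samples lie lowest, UUO highest and rUUO in between for all genes except Slc4a1, where UUO and rUUO overlap.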

How the data were processed

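LTL+ cells were sorted by flow cytometry, and cDNA amplified from their RNA (Ovation RNA-Seq System V2, NuGEN) was read as 150-base pairs on an Illumina HiSeq. The authors deposited FPKM values for 53465 genes on mm10 (GRCm38), rounded to 2 decimals; the submitters' processing notes name FastQC, Bowtie2, RSEM and DESeq2 with no version, and whether fragments were counted by strand is not given in the sources used here. Of 46 value columns, 10 were tested and 2, which share a name, were not used.

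PT groups were compared by limma 3.58.1 (lmFit, eBayes with an intensity trend, R 4.3.3) on log2(FPKM + 1), with Benjamini-Hochberg adjustment over all genes tested. Genes had to average 1 FPKM or more, and the spread was estimated over all 10 PT samples together. Shares and gene numbers were compared by exact two-sided permutation tests (scipy 1.17.1). The limma script was tested on simulated data. Python 3.11.15, numpy 2.4.6, pandas 2.3.3 and matplotlib 3.10.9 did the rest. Relative depth came from the steps between low values of single-exon genes of 200 to 1000 bases.

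The genes named were the 12 largest rises and 12 largest falls among called genes without overlap (predicted genes left out, 23 of the 434), in each of 20 function lists up to 4 called members with the smallest adjusted p and up to 2 of the most abundant members not called, and the marker genes; other called list members were added after their values were seen, and some genes are not reported here. The samples, lists and markers were chosen with earlier results of these data known, and the intercalated cell and distal epithelium lists after the values were seen. The lists held 493 genes, of which 451 were tested. Alternatives were a pseudocount of 0.1, no filter, equal sums (TPM), equal sums without chrM genes, quantile normalization, a fit on the groups compared alone, the replicate number as a block, no trend, a fold change above 1.5 and each sample left out.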

Additional observations from a re-analysis of the deposited data

Results flagged for a closer look

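In 6 of the 142 values tested over the 4 UUO samples, 1 sample stood far from the others by Dixon's test on log2(FPKM + 1), and chance alone gives about 1 in 20 groups. UUO replicate 1 was the highest of its group for Slc22a8, at 26.67 FPKM, and for Cd24a, at 501.39 FPKM. UUO replicate 2, the sample with SHAM in its title, was the lowest for Fbp1, at 78.24 FPKM, and for Mal, at 62.18 FPKM. UUO replicate 3 was the highest for Cxcl16, at 35.96 FPKM, and for Actb, at 460.47 FPKM. The sham and rUUO groups, with 3 samples each, were not tested in this way.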

How the results depend on the processing

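Depth in counts is unknown, and 3 and 4 samples limit every test. The number of genes called between rUUO and UUO depended on the settings: 203 (29 higher, 174 lower) with no filter on low values, 257 (33 and 224) with no intensity trend, 49 higher with only the groups compared, 265 (201 lower) with a pseudocount of 0.1, 211 higher and 148 lower after quantile normalization, and 148 higher and 157 lower without chrM genes. Leaving out 1 sample at a time gave 120 to 462 genes (22 to 79 higher and 94 to 383 lower). These were 182, 226, 170 and 218 without UUO replicates 1 to 4, 159, 120 and 256 without rUUO replicates 2 to 4, and 296, 462 and 401 without sham replicates 1, 2 and 4. Fewer samples were fitted in these, and for the other settings the cause was not tested.

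With the replicate number as a block, 160 genes passed (41 higher and 119 lower), and 60 were lower in rUUO than in sham. Deviations of same-numbered rUUO and UUO samples correlated at r = 0.03, −0.01 and 0.12, and not every sample correlated best with its own number, so the block is given here only.

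UUO against sham gave 2435 genes (1218 higher and 1217 lower) after quantile normalization, 1940 higher and 863 lower without chrM genes, and 2549 to 3892 (2045 to 3303 higher, 385 to 589 lower) with 1 sample left out. rUUO against sham gave 484 (439 and 45) with no filter, 51 lower with no trend, 232 lower after quantile normalization, 225 lower without chrM genes, and 556 to 817 (475 to 717 higher, 36 to 100 lower) with 1 sample left out. Of the 55 list members called, 32 passed with no filter, 31 with no trend, 35 with the block and 23 to 55 with 1 sample left out. The 24 largest changes kept 17 to 24 calls with 1 sample left out. The chrM share differed by 4.02 to 6.64 points with 1 sample left out, where the exact permutation tests of 3 against 3 or 2 against 4 samples cannot pass, and by 2.17 points over its protein-coding genes. The number of genes at 1 FPKM or more differed by −843 to −583 with 1 sample left out and by −355 without chrM genes.

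Of the called genes named, 37 of 85 passed under all 19 other settings and 65 without chrM genes, and none changed sign. Atf6 passed in 1 and Hk1, Ezr, Hmx2 and Cdh1 in 2 of 18 alternative fits. Estimates that were not called changed sign as follows. After quantile normalization they were Gapdh 0.03, Glud1 0.09, Gsta2 0.12, Hnf4a 0.09, Cxcl16 0.13, H2-K1 0.17, Ccng1 0.06, Egr1 0.14, Txn1 0.04 and Sparc 0.18, and without chrM genes Gapdh 0.03, Glud1 0.12, Gsta2 0.11, Hnf4a 0.09, Cxcl16 0.08, H2-K1 0.15, Ccng1 0.03, Egr1 0.15 and Sparc 0.18. After rescaling to equal sums Zfp36 was −0.03. With 1 sample left out, the estimates that changed sign ran over Cox4i1 −0.04 to 0.16, Glud1 −0.20 to 0.01, Cyp2e1 −0.06 to 0.34, Hnf4a −0.24 to 0.04, S100a6 −0.04 to 0.48, Cxcl16 −0.28 to 0.13, H2-K1 −0.17 to 0.12, Zfp36 −0.04 to 0.11, Egr1 −0.19 to 0.10, Calr −0.10 to 0.33, Sparc −0.07 to 0.10 and Slc4a1 −0.06 to 0.36.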

Other observations

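Some list members did not pass although their estimates were large or their names stand for a whole pathway, and they were chosen after their values had been seen. Ppara, the nuclear receptor that drives fatty acid oxidation genes, had 1.18, 2.3, 4.6 and 2.71 FPKM in UUO, 12.7, 4.45 and 7.02 in rUUO and 8.27, 7.71 and 9.35 in sham, a log2 change of 1.27 (limma adjusted p = 0.0658; 0.0435 without chrM genes). Amn, the membrane anchor of the cubilin receptor, had 9.98, 3.34, 11.2 and 8.58 FPKM in UUO and 36.7, 17.8 and 10.2 in rUUO, a log2 change of 1.20 (limma adjusted p = 0.127), and cubilin itself, Cubn, had a log2 change of 0.23 (limma adjusted p = 0.637). For all of these genes the rUUO and UUO samples overlapped.

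Pck1, the gluconeogenic enzyme that makes phosphoenolpyruvate, had 40.6, 56.04, 119 and 94.05 FPKM in UUO, 98.7, 59.6 and 106 in rUUO and 255, 274 and 122 in sham, a log2 change of 0.26 (limma adjusted p = 0.709) and 40.7% of the sham mean in rUUO. Cyp4a14, a fatty acid hydroxylase, had 4.06, 3.55, 27.9 and 15.02 FPKM in UUO and 2.27, 0.97 and 0.46 in rUUO, a log2 change of −2.27 (limma adjusted p = 0.0542). Among the injury genes, Timp1, an inhibitor of metalloproteinases, had a log2 change of −1.45 and the adhesion molecule Vcam1 of −0.62 (limma adjusted p = 0.0650 and 0.341), and Vcam1 had 13.7, 11.7 and 14.1 FPKM in rUUO against 0.59, 0.33 and 0.97 in sham.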
